A study of Mus musculus with 38 samples.

Results

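The expression of 7 endoderm transcription factor genes, chosen by name, was followed: Gata4, Gata6, Sox7, Sox17, Foxa2, Foxq1 and Hnf4a, 7 of the 23481 genes listed in the bulk table. All 7 had counts in it. The cells were E14 mouse embryonic stem cells (mESCs), an established line from which every group came. mESCs grew in a modified 2i medium with a MEK inhibitor, a GSK3 inhibitor and LIF, and differentiated in basal medium with 0.25 µM retinoic acid (RA). Bulk RNA-seq covered 2 mESC libraries, single libraries after 6, 12, 24, 36, 48, 60, 72, 84 and 96 h of RA, and fractions sorted on the surface proteins CD24 and PDGFRA. At 96 h, 2 libraries each came from ectoderm-like cells (CD24+/PDGFRA-) and from cells resembling extraembryonic endoderm (XEN-like, PDGFRA+/CD24-). Single libraries came from the 4 CD24 quartiles of PDGFRA- cells at 48 h (Q1 lowest to Q4 highest), the 3 CD24 terciles of PDGFRA- cells at 72 h (T1 to T3) and PDGFRA+/CD24- cells at 72 h. The last 2 libraries were cultures grown from sorted 96 h cells with EGF and FGF2, an ectoderm-like culture at passage 5 and a XEN-like culture after 3 weeks. Single cells were read by SCRB-seq, which counts molecules by unique molecular identifiers (UMIs), on 9 plates from 0 to 96 h, and by SMART-seq2, which covers whole transcripts, at 0, 12, 24 and 48 h.

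GATA4 and GATA6 are zinc finger proteins that bind GATA motifs and act in primitive endoderm formation in the blastocyst. SOX17 and SOX7 belong to the SoxF group of HMG box proteins and act next to GATA6 in the same lineage. FOXA2 and FOXQ1 carry a forkhead domain. FOXA2 opens chromatin in endoderm and also marks the node and the floor plate of the neural tube. HNF4A is a nuclear receptor of visceral endoderm and liver. Primitive endoderm gives rise to visceral and parietal endoderm, and XEN cells are its counterpart in culture.

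The RefSeq promoter table for GRCm38, the build the authors call mm10, matched 2 of the 7 genes, Foxa2 with 3 start sites and Hnf4a with 2. Each window ran from 250 bases before to 50 after a start. The windows were searched on both strands for the letters AGATAA, bound by GATA proteins, AACAAT, bound by SOX proteins, TGTTTAC, bound by FOX proteins, and AGGTCA, bound by nuclear receptors. Of the 5 windows, 2 held the GATA letters and none held any of the other 3 motifs. Among all 32851 windows of the table, 11.2% held the GATA letters, 10.7% the SOX letters, 3.65% the FOX letters and 16.3% the nuclear receptor letters. The stretches around the GATA letters are shown because Foxa2 and Hnf4a were followed beside the GATA factors; the match is in capitals. The Foxa2 stretch lies at chr2:148045582-148045707 on the minus strand, outside annotated exons and 5′ of a start within the gene. The Hnf4a stretch lies at chr2:163506793-163506822 on the plus strand, with 15 of its 30 bases in an annotated exon.
Foxa2: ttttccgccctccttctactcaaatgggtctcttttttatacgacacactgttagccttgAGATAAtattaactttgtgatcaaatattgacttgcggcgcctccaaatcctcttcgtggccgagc
Hnf4a: gaagaatcaataAGATAAccgggcggggtg
The matches begin 183 and 52 bases before the respective start. They are matches of letters, and no file used here measured binding.

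Bulk libraries held between 1063830 and 2459483 UMIs, so that 1 UMI was worth less than 1 CPM (counts scaled to a common library size). The labels of the sorted cells were checked on marker lists. The 12 effector genes of extraembryonic endoderm (laminins, collagens, endocytic receptors) summed to 12043 and 6540 CPM in the 2 sorted XEN-like libraries, against 481 and 1726 CPM in ectoderm-like replicates 1 and 2 and 318 and 241 CPM in mESCs. The 10 neuroectoderm genes summed to 3002 and 2415 CPM in ectoderm-like cells and to 602 and 308 CPM in XEN-like cells. Ectoderm-like replicate 2 thus held more endoderm RNA than replicate 1, and the comparisons of the factors with ectoderm-like cells are also given without it. The 6 mesendoderm and definitive endoderm genes never exceeded 10.6 CPM in sum in any of the 25 libraries, and none passed the filter on low counts. The study's methods describe the libraries of mESCs, ectoderm-like and XEN-like cells as biological replicates. In bulk samples, fewer cells of a type and less RNA per cell cannot be told apart.

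When did each factor appear? By the end of the time course all 7 were above mESCs: their 95% exact Poisson interval at 96 h lay above those of both mESC libraries, as it did for 12.3% of 17578 genes. For Gata4, Gata6, Sox7, Sox17 and Foxa2 this held from 48 h on, for Foxq1 from 60 h and for Hnf4a only at 96 h. Counting a factor as present from 4 times the higher mESC level on moved the onset of Gata6 to 36 h, of Sox7 and Foxq1 to 24 h and of Foxa2 to 12 h. Foxa2 and Foxq1 had no UMI in mESCs, so any UMI passed this rule. Their onsets by it rest on 1 UMI each, with intervals that overlapped those of mESCs. These intervals cover counting error only, each time point was 1 library, and no test was possible.

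Gata6 stood at 0.437 and 0.435 CPM in the mESC libraries. It was between 0.978 and 1.32 CPM from 6 to 24 h, and then 4.24, 12.2, 19.2, 39.2, 54.96 and 93.8 CPM at 36, 48, 60, 72, 84 and 96 h. Each value from 36 h on was higher than the one before. Gata6 lies on chromosome 18, from 11052064 to 11085635 on the plus strand, and its exons overlap those of 1010001N08Rik on the other strand. Whether counting used strand is not given in the sources used here.

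Gata4 rose late in the course. It was at 0 and 0.435 CPM in mESCs, at most 0.996 CPM up to 36 h, and 6.91, 7.21, 31.1, 37.3 and 93.3 CPM at 48, 60, 72, 84 and 96 h. The last step, from 84 to 96 h, was 2.50-fold (interval 1.89 to 3.33), and at 72 h Gata4 stood at 33.3% of its final level. Over the same last step Gata6 rose 1.71-fold (1.34 to 2.19), and the intervals of the GATA genes overlapped. Gata4 lies on chromosome 14, from 63198922 to 63271692 on the minus strand. By linear interpolation, 50% of the 96 h level was passed at 77.8 h for Gata6 and at 86 h for Gata4. These times come from single libraries and carry no interval.

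The SoxF genes took different courses after 60 h. Sox17 was at 1.31 and 0.435 CPM in mESCs, at most 0.881 CPM up to 24 h, and 3.03, 10.2, 27.02, 38.1, 71.04 and 86.1 CPM from 36 to 96 h. Sox7 was at 0.437 and 0 CPM in mESCs and at 0.489, 1.32, 1.99, 4.24, 4.88, 10.2, 10.9, 10.4 and 29.2 CPM from 6 to 96 h. Between 60 and 84 h Sox7 stayed near 10 CPM, with overlapping intervals, while Sox17 at 84 h lay above its 60 h level by separate intervals. For Sox7 between 84 and 96 h the ratio was 2.82 (1.67 to 4.95). Over the same step the ratio for Sox17 was 1.21 (0.961 to 1.53), an interval that includes no change. Sox17 (chromosome 1, 4490931 to 4497354, minus strand) overlaps exons of Gm37587 on the other strand, and Sox7 (chromosome 14, 63943673 to 63950732, plus strand) overlaps none. Gene positions are from GENCODE for GRCm38.

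Among the forkhead genes Foxa2 (chromosome 2, 148042877 to 148046969, minus strand) passed 50% of its 96 h level at 66.4 h. That was the earliest point value of the 7, and it carries no interval. It had no UMI in either mESC library or at 6 h, 0.441 and 0.498 CPM at 12 and 24 h, and 3.63, 4.47, 5.40, 16.3, 21.3 and 22.5 CPM from 36 to 96 h. At 72 h it stood at 72.5% of its 96 h level, where the other 6 factors stood between 26.6% and 44.3%. Foxq1 had no UMI in mESCs or up to 12 h and then 0.498, 1.21, 2.85, 7.21, 11.4, 10.4 and 26.1 CPM, with 2.52-fold (1.48 to 4.46) in the last step. Its exons (chromosome 13, 31556134 to 31560976, plus strand) overlap A530084C06Rik on the other strand.

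Hnf4a was the last and lowest in UMIs. It had 0 and 2 UMIs in mESCs, between 0 and 5 UMIs in every library from 6 to 84 h, and 16 UMIs (8.20 CPM, 4.69 to 13.3) at 96 h. The gene lies on chromosome 2, from 163506808 to 163572910 on the plus strand. Its level was therefore separable from that of mESCs at 96 h alone.

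**Figure D1:**
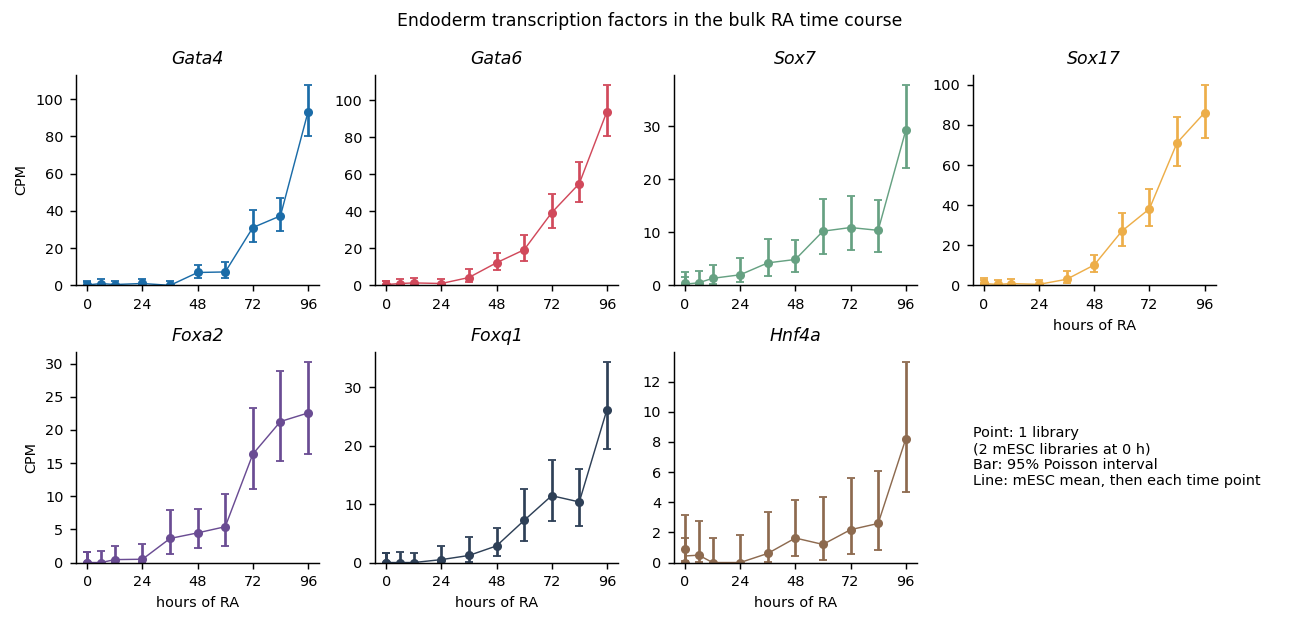
CPM (linear axis, a scale of its own in each panel) of the 7 factors against hours of RA; each point is 1 library with its 95% Poisson interval, 2 mESC libraries stand at 0 h, and the line runs from their mean. Gata4, Sox7 and Foxq1 show a last step of 2.50-, 2.82- and 2.52-fold from 84 to 96 h. The Foxa2 value at 72 h is 72.5% of that at 96 h, with overlapping intervals.

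SCRB-seq asked how many cells carried each factor. Of 3456 wells, 2448 held more than 2000 UMIs, between 137 and 335 per time point, with median depths of 3560 to 5069 UMIs. Each cell was thinned to 2000 UMIs so that shares could be set side by side, and unthinned shares are added for Gata6 and Foxa2. Every time point was 1 plate, so time and plate cannot be told apart. All 9 plates use the same 384 well names, which are positions and not shared cells. mESC wells, which had a median depth of 3938 UMIs against 4028 at 96 h, served as the reference level. Some of them held UMIs of the factors.

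Gata6 was the first factor seen in many cells. It had no UMI in 282 mESC wells, which allows a share of up to 1.06%, and was in 6.89% of cells at 36 h (95% exact binomial interval 4.42 to 10.2), in 5.42% at 48 h, 10.99% at 60 h, 6.38% at 72 h and 32.1% (24.4 to 40.6) at 96 h. Unthinned, these shares were 14.4%, 13%, 20.1%, 17.9% and 49.6%. At 36 h 1 cell alone held 19 of the 101 Gata6 UMIs. Per 10000 UMIs Gata6 was at 0.413 (0.337 to 0.502) at 36 h and at 2.60 (2.24 to 3.00) at 96 h. From 36 to 72 h the intervals of the share overlapped, and only the 96 h share lay above all of them.

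The other factors were seen in fewer cells. Sox17 was in 0.599% of cells at 36 h, 0.722% at 48 h, 5.49% at 60 h, 3.40% at 72 h and 23.4% (16.6 to 31.3) at 96 h. Gata4 had 1 UMI in mESC wells and none at 6 to 24 h or at 48 h, and was in 1.47%, 3.40% and 12.4% (7.40 to 19.1) of cells at 60, 72 and 96 h. Both had their highest share at 96 h, with an interval above those of all earlier time points. Foxq1 was in 2.56%, 0.426% and 10.9% (6.26 to 17.4) of cells at 60, 72 and 96 h. Sox7 stayed rare throughout, with a highest share of 2.93% (1.27 to 5.69) at 60 h and 2.19% (0.454 to 6.27) at 96 h.

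Foxa2 had its highest share at 72 h and not at 96 h. It was in no mESC cell, in 1.198%, 1.81% and 4.40% of cells at 36, 48 and 60 h, in 11.1% (7.36 to 15.8) at 72 h and in 6.57% (3.05 to 12.1) at 96 h. Without thinning the shares at 72 and 96 h were close, at 18.3% and 17.5%. In cells thinned to 4000 UMIs they were 21.15% and 17.14%. Per 10000 UMIs it was at 0.856 (0.705 to 1.03) at 72 h and 0.578 (0.417 to 0.781) at 96 h. The 72 h level was the higher, but the 2 intervals overlap, and in bulk Foxa2 was highest at 96 h. Hnf4a was not separable from its mESC level, with 6 UMIs in 6 mESC cells, 8 UMIs in 8 cells at 72 h and 4 UMIs in a single cell at 96 h.

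**Figure D2:**
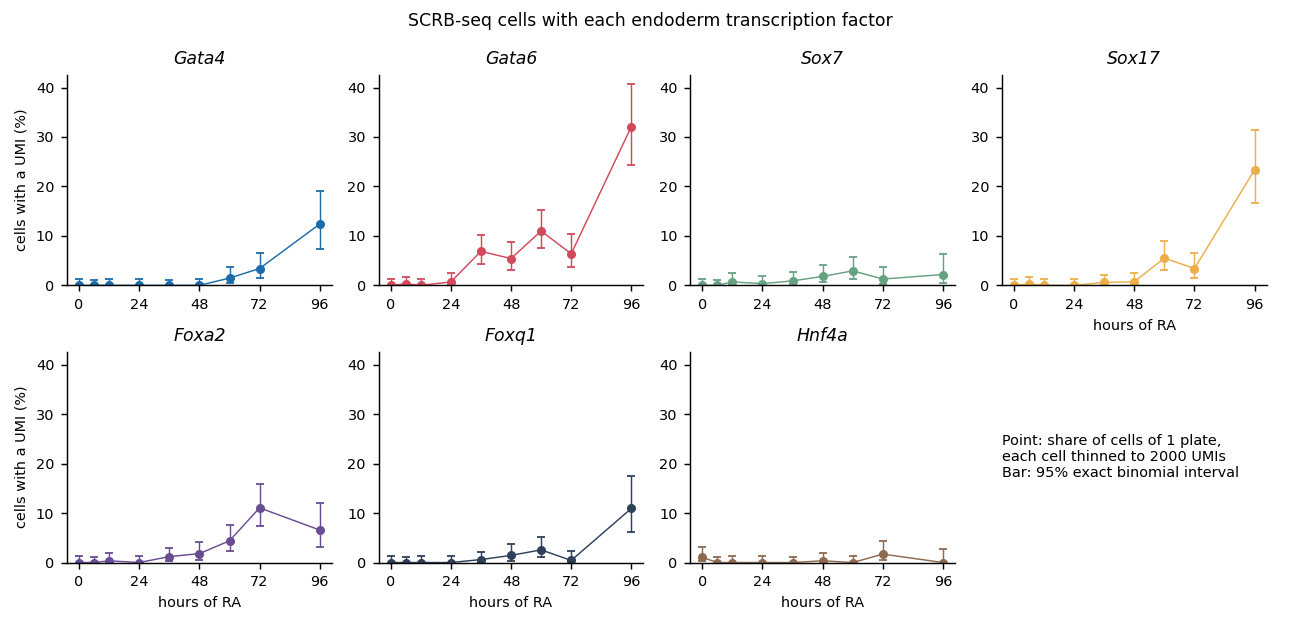
Share of SCRB-seq cells (%) with a UMI of each factor after thinning to 2000 UMIs, against hours of RA on 1 common scale; bars are 95% exact binomial intervals over the cells of 1 plate. Gata6 reaches 32.1% and Sox17 23.4% at 96 h, and Foxa2 is at 11.1% at 72 h and 6.57% at 96 h (18.3% and 17.5% unthinned).

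SMART-seq2 gave an earlier look at 82 to 89 cells per time point. A cell was counted as positive above 1 normalised RPKM (reads scaled by transcript length and library, then to the median cell total of mESCs). Gata6 was in 0 of 82 mESC cells (up to 3.66% allowed), in 11 of 86 cells at 12 h (12.8%, 6.56 to 21.7), in 9 of 89 at 24 h (10.1%) and in 14 of 82 at 48 h (17.1%, 9.66 to 26.98). Foxa2 went from 0 of 82 and 0 of 86 cells to 1 of 89 at 24 h and 21 of 82 at 48 h (25.6%, 16.6 to 36.4). Sox17 went from 3, 3 and 4 cells to 23 of 82 at 48 h (28.05%, 18.7 to 39.1). The binomial intervals of Gata6 at 12 h and of Foxa2 and Sox17 at 48 h did not overlap those at 0 h. Each time point was 1 sample, so the intervals cover the counting of its cells and not the spread between cultures, and no test between time points was possible. At 12 h the other methods gave Gata6 no such difference: it was in 0 of 285 thinned SCRB-seq cells (0.702% unthinned), and the bulk library held 3 UMIs, with an interval that overlapped those of mESCs.

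Some factors were already seen in mESC cells by this method. Sox7 was in 8 of 82 mESC cells (9.76%, 4.31 to 18.3) and in 23 of 82 at 48 h (28.05%, 18.7 to 39.1). Gata4 was in 5 of 82 mESC cells and in 9 of 82 at 48 h, and Hnf4a in 7 of 82 mESC cells and 1 of 82 at 48 h. The intervals at 0 and 48 h overlapped for Gata4 and Hnf4a and just missed each other for Sox7. Foxq1 was in 0, 3, 1 and 6 cells at 0, 12, 24 and 48 h. The study kept only cells above a minimum number of reads. The RPKM values carry no read counts, so the depth of each cell beyond that minimum is unknown.

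Did single cells carry several factors? At 48 h in SMART-seq2, 54 of 82 cells had at least 1 factor, 30 had exactly 1, 13 had 2, 7 had 3, 2 had 4 and 2 had 6. No cell had all 7. Of the 14 Gata6 cells, 13 had another factor, and of the 23 Sox7 cells 11 did. At 12 h 9 of 11 Gata6 cells had no other factor, and at 24 h 6 of 9.

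Pairs at 48 h ranged around the product of their shares. Gata6 and Foxa2 were together in 8 cells, where the product of the shares gives 3.59, and Gata4 and Foxa2 in 6 cells (2.30). Sox17 and Foxa2 met in 9 cells (5.89), Gata6 and Sox17 in 7 (3.93) and Gata4 and Sox17 in 5 (2.52). The pair of SoxF genes met in 6 cells (6.45) and the pair of GATA genes in 1 cell (1.54). Thus the paralog pairs were close to the product and Foxa2 met both GATA genes more often than it; these are counts over cells of 1 sample, with no test.

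**Figure D3:**
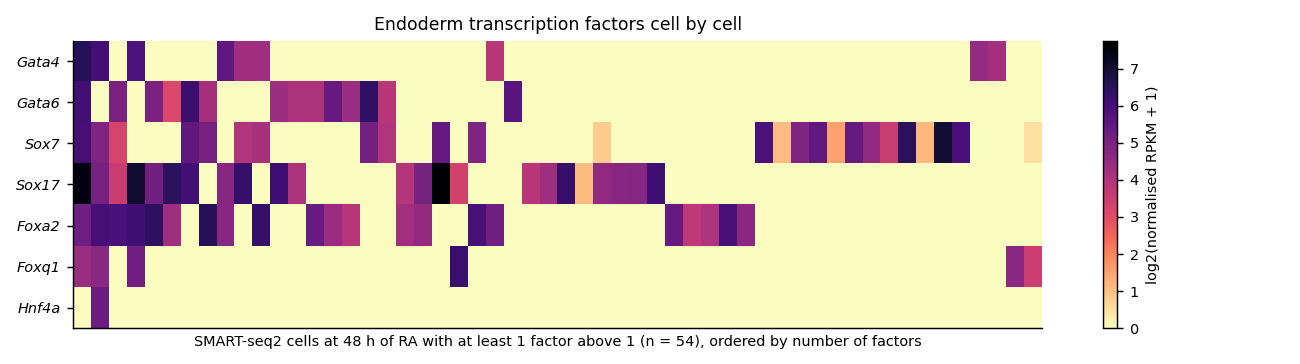
SMART-seq2 cells at 48 h of RA with at least 1 of the 7 factors above 1 normalised RPKM (54 of 82 cells, columns), ordered by the number of factors; colour gives log2(normalised RPKM + 1). The 2 cells at the left hold 6 factors each, and 30 cells hold 1.

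The SCRB-seq cells showed more joint detection at 96 h. Of 137 cells, 98 had at least 1 factor, 65 at least 2 and 36 at least 3, against 91, 36 and 15 of 235 cells at 72 h (unthinned). Of 36 Gata4 cells at 96 h, 30 also had Gata6, where the product of the shares gives 17.9. Gata6 and Sox17 met in 34 cells (25.3), Gata6 and Foxa2 in 18 (11.9), Gata6 and Foxq1 in 21 (15.9), Sox17 and Foxq1 in 19 (11.9) and Gata4 and Sox17 in 17 (13.4). Every one of these pairs was above its product. Gata4 and Gata6 cells had median depths of 6498 and 5302 UMIs, and cells with no factor 3402 UMIs, so deeper cells are more often counted for both; the part of depth in these counts was not tested.

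Foxa2 cells had different company at 72 and 96 h. At 72 h 26 of 43 Foxa2 cells had no Gata4, Gata6 or Sox17 UMI, and at 96 h 3 of 24. Cells with any of those 3 factors were 61 of 235 at 72 h and 89 of 137 at 96 h. Foxa2 cells with any of them were thus 17 at 72 h, where the product of the shares gives 11.2, and 21 at 96 h (15.6), above the product at both times. Depth moved with this split: the median at 72 h was 4180 UMIs in the Foxa2 cells without the 3 factors and 8406 UMIs in those with them, and its part was not tested. The Foxa2 cells without those 3 factors at 72 h held no Pdgfra UMI and 17.3 UMIs per 10000 (15.2 to 19.6) of 7 basement membrane genes (Sparc, Col4a1, Col4a2, Lama1, Lamb1, Lamc1 and Nid1). The Foxa2 cells with any of them held 23.03 (21.2 to 24.96), cells with Gata4, Gata6 or Sox17 but no Foxa2 44.8 (42.3 to 47.4), and cells with no factor 11.1 (10.3 to 12.0). Neuroectoderm genes gave 34.7 UMIs per 10000 (31.7 to 37.9) in the Foxa2 cells without those 3 factors, 36.6 (34.3 to 38.97) in the Foxa2 cells with them and 29 (27.01 to 31.1) in the cells with Gata4, Gata6 or Sox17 but no Foxa2. In cells with no factor they gave 29.9 (28.6 to 31.3). At 96 h the 21 Foxa2 cells with Gata4, Gata6 or Sox17 held 163 (157 to 169) basement membrane UMIs per 10000. Cells with Gata4, Gata6 or Sox17 but no Foxa2 then held 146 (142 to 150) and cells with no factor 52.3 (48.7 to 56.15). Over all cells these genes rose from 21.2 at 72 h to 124.7 at 96 h.

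Ranking cells by the basement membrane genes, which hold none of the factors, also set the cells apart. At 96 h the upper tercile of 45 cells against the lower tercile of 45 held 125 against 10 Gata6 UMIs, a 9.34-fold ratio per UMI (4.91 to 20.0). Gata4 had 38 against 2 UMIs (3.67 to 121), Sox17 66 against 8 (2.95 to 14.9), Foxq1 36 against 4 (2.41 to 26) and Sox7 10 against 1 (1.06 to 324). Foxa2 had 18 against 10 UMIs, a ratio interval of 0.589 to 3.26. So 5 of the 7 factors had an interval above 1 at 96 h, where 8.67% of 11953 genes did, and at 72 h, with 78 cells a tercile, it was 4, namely Gata4, Gata6, Foxa2 and Foxq1, where 14.4% of 12838 genes did. With cells split at the median of the same genes it was 4 factors at 96 h (9.38% of genes) and 3 at 72 h (14.2%). The intervals cover counting error only, and the cells of a time point are 1 sample. Median depths were 4436 and 3879 UMIs in the upper and lower tercile at 96 h. In the same cells at 96 h Pdgfra had 66 against 5 UMIs and Cd24a, the CD24 gene, 29 against 70. At 72 h Pdgfra had 30 against 1 UMI, but Cd24a was higher in the upper tercile there, with 179 against 65 UMIs (1.71-fold, 1.28 to 2.31).

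Pdgfra, the receptor gene used for sorting, split the SMART-seq2 cells at 48 h. Of 11 cells above 1 normalised RPKM of Pdgfra, 7 had Sox17 (63.6%, 30.8 to 89.1) against 16 of 71 without (22.5%, 13.5 to 34). For Gata4 it was 5 of 11 (45.5%, 16.7 to 76.6) against 4 of 71 (5.63%, 1.56 to 13.8). Gata6 was in 1 of 11 Pdgfra cells and in 13 of 71 others, and Sox7 in 3 of 11 and 20 of 71. In this split the 2 intervals were separate for Gata4 and overlapped for the other 6 factors. With the 10 cells highest in Pdgfra taken instead, they were separate for Gata4 (50% against 5.56%) and for Sox17 (70%, 34.8 to 93.3, against 22.2%, 13.3 to 33.6).

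The gates showed where the factors were by protein sort. At 72 h, PDGFRA+/CD24- cells lay above all 3 PDGFRA- terciles by separate intervals for 5 of the 7 factors, against 4.28% of 15431 genes. Sox17 was at 202 CPM in PDGFRA+ cells and at 21.8, 16.8 and 15.4 CPM in T1, T2 and T3, an 11.2-fold ratio (8.57 to 14.9) to the 3 terciles summed. Gata6 was at 102 against 11.7, 6.18 and 3.84 CPM (14.1-fold, 9.28 to 22.1). Gata4 was at 68.4 against 6.22, 7.94 and 3.07 CPM (12.1-fold, 7.49 to 20.5). In each case the PDGFRA+ library stood alone and the intervals of the terciles overlapped.

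Sox7 and Foxq1 were as unequal, at 30.9 CPM and 26.5 CPM in PDGFRA+ cells, with ratios of 19.2 (8.10 to 55.1) and 19.7 (7.71 to 64.3). Foxa2 was not. It was at 22.1 CPM in PDGFRA+ cells and at 10.9, 7.94 and 10.8 CPM in the terciles, 2.22-fold (1.32 to 3.69) over their sum, with intervals that overlapped those of single terciles. Hnf4a had 4 UMIs in PDGFRA+ cells and 2, 0 and 1 in the terciles. Within the PDGFRA- cells, Gata6 in T3 was 0.329 times its level in T1 (0.0936 to 0.953), and no other factor had a T3 to T1 interval apart from 1. Pdgfra was at 15.5, 6.18 and 2.30 CPM in T1, T2 and T3 and at 116 CPM in PDGFRA+ cells.

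At 48 h none of the 7 factors stood above all 4 PDGFRA- quartiles in the unsorted culture by separate intervals, as 3.27% of 16507 genes did. Against the 4 quartiles summed the unsorted 48 h library had 2.55-fold Gata4 (1.2 to 5.49), 2.18-fold Gata6 (1.28 to 3.73) and 3.38-fold Sox7 (1.27 to 9.54). The ratios of Sox17, Foxa2, Foxq1 and Hnf4a had intervals that included 1. The unsorted library also differed from the quartiles in other lists. The 10 neuroectoderm genes summed to 2355 CPM in it and to 866, 999.7, 1362 and 1433 CPM from Q1 to Q4. The 10 pluripotency genes summed to 3698 CPM in it and to 6036, 6057, 5417 and 3875 CPM from Q1 to Q4. The part of these differences in the ratios was not tested. Between Q1 and Q4 no factor differed beyond its interval, with Gata6 at 7.36, 7.86, 4.70 and 2.53 CPM from Q1 to Q4.

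In the sorted 96 h cells, 2 libraries a group allowed a test (edgeR's quasi-likelihood F test, Benjamini-Hochberg adjusted over 8947 genes). A permutation test of single genes in such a design cannot go below p = 0.333. Of the 7 factors, 6 passed the filter on low counts, and all 6 were higher in XEN-like cells than in mESCs, where 12.3% of the genes tested were. Against ectoderm-like cells 5 of 6 were higher, where 6.99% of genes were, the exception being Foxa2. Ectoderm-like cells were above mESCs for 5 of 6, where 9.85% of genes were, the exception being Sox7. A filter on low counts favours factors that are high in 1 of the groups, so these counts support nothing by themselves. Over mESCs, the 6 factors were higher in XEN-like cells by 6.91 to 8.84 on the log2 scale, with adjusted p from 2.39e-05 to 0.000265. The mESC libraries together held at most 4 UMIs of any of them, so these sizes rest on single UMIs. Without mESC replicate 1 the differences of Gata4, Sox7 and Sox17 were 7.25, 9.08 and 7.83, and without mESC replicate 2 they were 10.3, 6.09 and 6.42, all still called.

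Gata6 stood at 148 and 91.1 CPM in XEN-like replicates 1 and 2, at 6.11 and 10.98 CPM in ectoderm-like cells and at 0.437 and 0.435 CPM in mESCs. It was higher in XEN-like than in ectoderm-like cells by 3.90 on the log2 scale (SE 0.40, adjusted p = 0.000674), and was called in all 11 alternatives, with adjusted p from 1.3e-17 to 0.0099. Gata4 stood at 102 and 78.4 CPM in XEN-like cells and at 3.34 and 22.6 CPM in ectoderm-like cells, 2.91 (SE 0.60, adjusted p = 0.00991), and this call was lost with DESeq2 (adjusted p = 0.125), the highest of 11 alternatives that went down to 1.09e-10. The XEN-like libraries were the highest for both GATA genes and did not overlap the others.

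Sox17 stood at 150 and 118 CPM in XEN-like and at 11.7 and 40.1 CPM in ectoderm-like cells, a log2 difference of 2.47 (SE 0.49, adjusted p = 0.0077). Without ectoderm-like replicate 1 its adjusted p was 0.0504, the highest of 11 alternatives that went down to 3.28e-09. Sox7 stood at 48.2 and 29.2 CPM against 0.556 and 3.88 CPM, 4.25 (SE 0.63, adjusted p = 0.00208). Its range over 11 alternatives was 4.43e-12 to 0.0292. The difference of Sox7 between ectoderm-like cells and mESCs did not pass the test (2.67, SE 1.27, adjusted p = 0.169, from 0.0696 to 0.804 in 11 alternatives).

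Foxq1 stood at 43.7 and 20.1 CPM in XEN-like and at 1.67 and 4.52 CPM in ectoderm-like cells, a log2 difference of 3.48 (SE 0.58, adjusted p = 0.00433). It lost that call without ectoderm-like replicate 1 (adjusted p = 0.0617) or XEN-like replicate 1 (0.0802), where the lowest adjusted p of its 11 alternatives was 1.33e-08. Foxa2 stood at 32.5 and 21.9 CPM in XEN-like and at 12.8 and 28.4 CPM in ectoderm-like cells. The 2 groups overlapped, and the difference of 0.51 (SE 0.45, adjusted p = 0.526) did not pass the test, nor did it in any of 11 alternatives, with adjusted p from 0.181 (without ectoderm-like replicate 2, log2 difference 1.31) to 1. Against mESCs, which had no UMI of either gene, Foxa2 was at least 43.9-fold higher in XEN-like and at least 30.6-fold higher in ectoderm-like cells, counting 3 UMIs over the 2 mESC libraries as the floor.

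Hnf4a did not pass the filter, since the XEN-like libraries held 6 and 11 of its UMIs, the ectoderm-like libraries 0 and 3 and the mESC libraries 0 and 2. Summed, XEN-like cells had 12.7-fold the mESC level (3.02 to 113), and without the filter the adjusted p of edgeR's test was 0.0105. In 5 of the fits that left out 1 library Hnf4a passed the filter, and it was called in none of them, with adjusted p from 0.0785 to 0.279. In the ectoderm-like replicates Gata4, Sox17 and Foxa2 moved with the endoderm effectors named above. Replicate 2 had 6.78-fold the Gata4 (2.82 to 19.7), 3.43-fold the Sox17 (2.06 to 5.93) and 2.22-fold the Foxa2 (1.31 to 3.86) of replicate 1. The ratios of Gata6 (1.80, 0.794 to 4.24), Sox7 (6.975, 0.846 to 321) and Foxq1 (2.71, 0.619 to 16.3) were also above 1, but their intervals included 1. Without ectoderm-like replicate 2 the log2 difference between XEN-like and ectoderm-like cells was 4.94 for Gata4, 4.48 for Gata6, 6.16 for Sox7, 3.73 for Sox17 and 4.42 for Foxq1, and all 5 calls remained. Without ectoderm-like replicate 1 the same differences were 2.07, 3.50, 3.38, 1.82 and 2.88. Also without ectoderm-like replicate 2, 3 and not 5 factors were above mESCs in ectoderm-like cells, Gata4 (adjusted p = 0.0908, the highest of 11 alternatives from 2.22e-09) and Foxq1 (0.165, the highest of 11 from 0.00163) being lost. Foxq1 also lost it without either mESC replicate (0.0808 and 0.0778). Without ectoderm-like replicate 1, 3 and not 5 were higher in XEN-like than in ectoderm-like cells. The part of endoderm RNA in the ectoderm-like values was not tested.

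**Figure D4:**
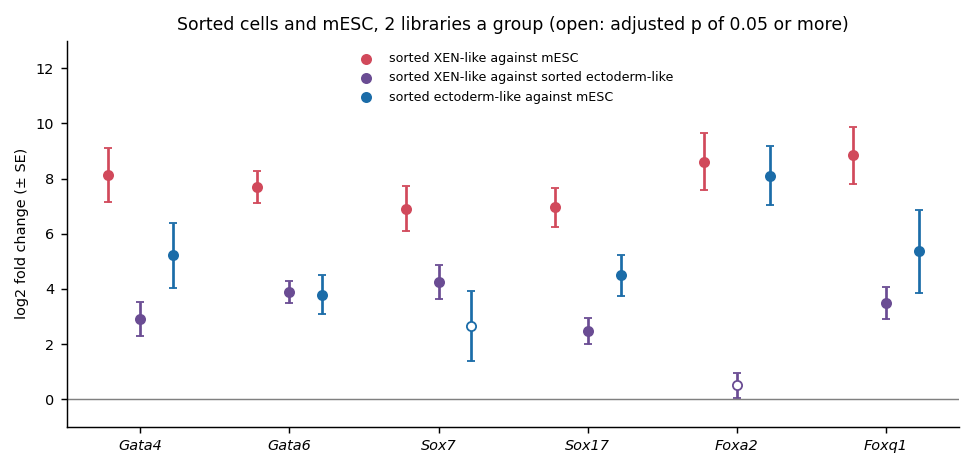
Log2 fold change (± SE, derived from edgeR's F statistic) of the 6 factors tested, for 3 comparisons of 2 libraries a group. Open symbols did not pass an adjusted p of 0.05. The comparison of XEN-like with ectoderm-like cells lies between 2.47 and 4.25 for 5 factors and at 0.51 for Foxa2.

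The cultures extended the comparison beyond 96 h. The XEN-like culture lay above both sorted XEN-like libraries by separate intervals for 4 of 7 factors (12.0% of 14821 genes) and below both for 1 (9.41% of genes). Foxa2 was at 110 CPM in the culture, 3.37-fold (2.51 to 4.58) and 5.01-fold (3.25 to 8.06) over sorted replicates 1 and 2. Foxq1 was at 99.3 CPM (2.27-fold, 1.73 to 3.01, and 4.95-fold, 3.15 to 8.15) and Gata4 at 181 CPM (1.77-fold, 1.47 to 2.14, and 2.31-fold, 1.80 to 2.98). Hnf4a, at 35.9 CPM from 52 UMIs, had its highest level of all 25 libraries there, 11.8-fold (5.06 to 33.5) and 3.58-fold (1.84 to 7.60). Other markers moved in the same library, and their part in these values was not tested. The sort markers stood the other way round, with Cd24a at 421 CPM against 9.14 and 14.6 CPM and Pdgfra at 34.5 CPM against 144 and 143 CPM. The 5 endothelial genes summed to 90.4 CPM against 8.63 and 3.65 CPM, from Cdh5 (55.2 CPM) and Tek (35.2 CPM), with Pecam1, Kdr and Tal1 at 0.

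Sox7 went the other way. The XEN-like culture held 1 Sox7 UMI (0.690 CPM, 0.0175 to 3.84), 0.0143 times (0.000358 to 0.0816) and 0.0236 times (0.000581 to 0.142) the sorted libraries with their 95 and 32 UMIs. Its paralog Sox17 was at 174 CPM in the same library, 1.16-fold (0.977 to 1.38) and 1.47-fold (1.18 to 1.83), and Gata6 at 142 CPM. The culture is a single library, so no test was possible. In the ectoderm-like culture Foxa2, Foxq1, Sox7 and Hnf4a had no UMI, Sox17 had 1, Gata6 had 6 and Gata4 had 7. Foxa2 was at least 7.96-fold lower there than in sorted replicate 1 and at least 17.7-fold lower than in replicate 2, against a floor of 3 UMIs in the library.

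**Figure D5:**
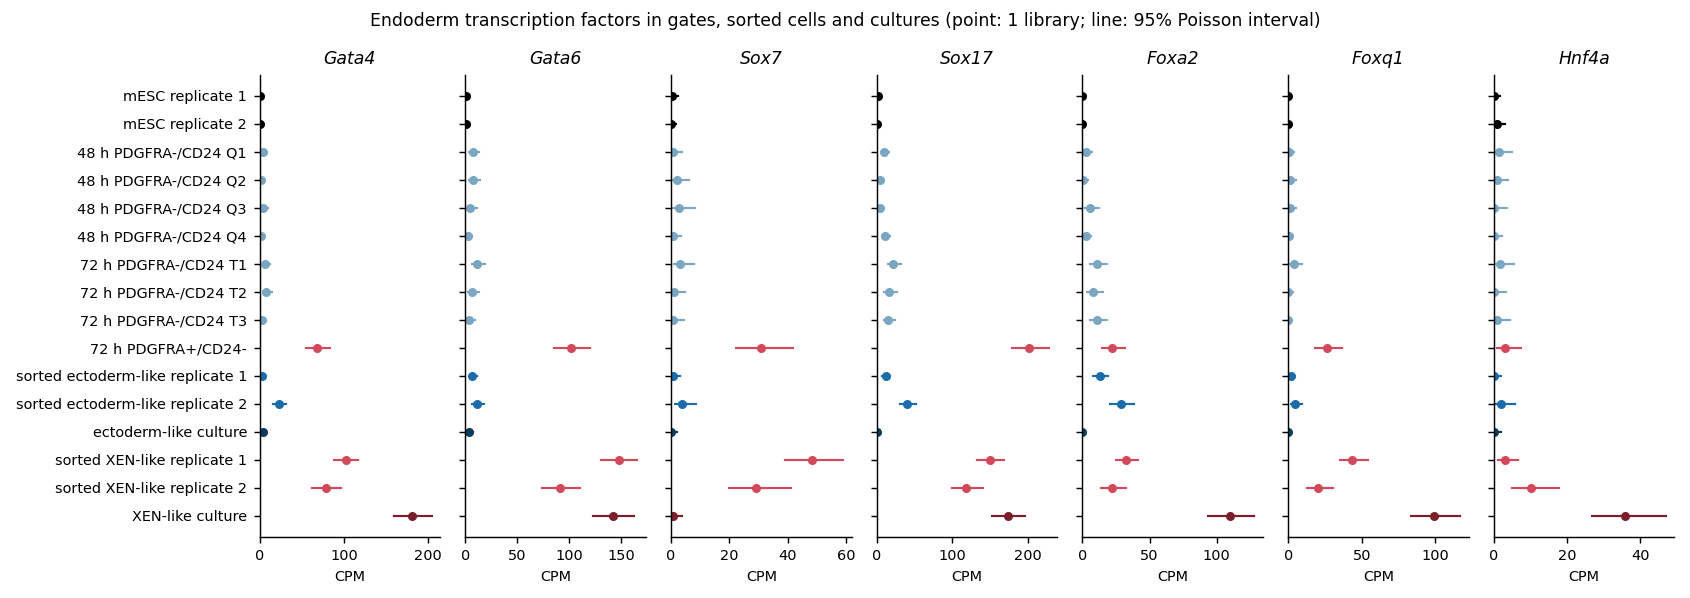
CPM (linear axis, a scale of its own in each panel) of the 7 factors in 16 libraries: mESC, CD24 quartiles and terciles, PDGFRA+ cells, sorted cells and cultures; each point is 1 library and each line its 95% Poisson interval. Sox7 is at 0.690 CPM in the XEN-like culture and Foxa2 at 110 CPM, and the sorted ectoderm-like and XEN-like libraries overlap in their values for Foxa2 and in their intervals also for Hnf4a.

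Across all 25 bulk libraries the 5 factors other than Sox7 and Hnf4a varied together, with Pearson's r of log2(CPM + 1) between 0.836 and 0.955 for their 10 pairs. Pairs with Sox7 had r between 0.509 and 0.792 and pairs with Hnf4a between 0.509 and 0.877. The libraries share a time course and a cell line, so these are descriptions. Among 10510 other genes, Lamb1, a laminin chain, was the nearest to Gata6 (r = 0.976) and Gata4 (0.968), and the zinc transporter gene Slc39a8 to Sox17 (0.953). Krt18, a keratin, was the nearest to Foxa2 (0.943), Fxyd3 to Foxq1 (0.952), Dusp9 to Sox7 (0.900) and Ugt2b34 to Hnf4a (0.928). Of the 21 nearest genes, 8 stayed among the nearest 3 with a pseudocount of 0.1 and 5 with 10.

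Paralogs of the factors were read in the same libraries. Foxa1, which acts with Foxa2 in many tissues, was at 17.2 and 13.6 CPM in ectoderm-like and at 4.06 and 0.911 CPM in XEN-like cells, lower in the latter by the test (−2.35, SE 0.63, adjusted p = 0.0308). Gata3 was at 15.6 and 3.23 CPM in ectoderm-like and at 3.56 and 1.82 CPM in XEN-like cells and was not tested. Foxa3 was at 7.59 CPM in the XEN-like culture, and it had at most 2 UMIs in any sorted library, with none in either sorted XEN-like library.

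Lists of effector genes and of partner regulators were read in the sorted cells. Of 12 extraembryonic endoderm effectors, 11 were tested; 10 were higher in XEN-like cells than in mESCs and 11 higher than in ectoderm-like cells, with medians of 5.95 and 3.42 on the log2 scale, beside −0.06 over all genes in both comparisons. Examples are the adaptor gene Dab2 (8.74 over mESCs), the endocytic receptor gene Cubn (8.05) and Lamb1 (6.83). Of 7 cofactors and partner regulators, 5 were tested and 2 were higher and 1 lower in XEN-like cells in each of the 2 comparisons. Among all genes tested, 12.3% were higher in XEN-like cells than in mESCs and 6.99% higher than in ectoderm-like cells. Klf6 was higher in both (2.91 and 2.07), Nr2f2 was higher than in mESCs and lower than in ectoderm-like cells (3.69 and −1.77), and Tbx3 the reverse (−1.32 and 2.20).

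Of 11 genes of FGF and ERK signalling and repressors of the lineage, 8 were tested. In XEN-like cells 6 were lower than in mESCs and none higher (median −2.70), among them Prdm14 (−8.05), a repressor gene of naive pluripotent cells, Etv5 (−5.50), an ETS factor induced by ERK, the ligand Fgf4 (−5.01), and the receptor Fgfr1 (−3.11). Against ectoderm-like cells 2 were lower, Fgfr1 (−3.99) and the phosphatase Dusp6 (−3.57). Of all 8947 genes tested, 939 were lower in XEN-like cells than in mESCs and 514 lower than in ectoderm-like cells. mESCs were grown with a MEK inhibitor and the RA cultures were not, so cell state and medium cannot be told apart in the comparisons with mESCs.

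Markers of other tissues that use these factors were also read. Of the 5 cardiac genes 1 was tested, and it was lower in XEN-like cells than in mESCs, with no call against ectoderm-like cells; the same counts held for the 5 endothelial genes. The 5 trophoblast genes summed to between 0.535 and 33.3 CPM and none was tested. Of the 7 parietal endoderm genes, 6 were tested, and 5 were higher in XEN-like cells than in mESCs and 6 higher than in ectoderm-like cells. Among all genes tested, the shares higher in XEN-like cells were 12.3% and 6.99% in these comparisons. Of the 11 visceral endoderm genes, 5 were tested. Of these, 4 were higher and 1 lower than in mESCs, and 1, Cubn, was higher than in ectoderm-like cells, where the median was −0.05. The lists share genes, so their counts are not separate. Cubn and Amn of the visceral list and Fst, Lamb1 and Nid1 of the parietal list are also among the effectors. All 10 pluripotency genes were lower in XEN-like cells than in mESCs, where 939 of 8947 genes tested were. Against ectoderm-like cells 5 were higher and 1 lower. All 10 neuroectoderm genes were lower in XEN-like than in ectoderm-like cells, where 514 of 8947 genes were.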

How the data were processed

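Bulk and SCRB-seq files hold raw UMI counts per gene, deposited by the authors without normalization, and SMART-seq2 files hold RPKM values made by the authors. The submitters' processing notes name BWA 0.7.4, TopHat, Cuffnorm and the build mm10. For bulk and SCRB-seq libraries the authors aligned reads to RefSeq mRNA, kept those with an exact well barcode and with barcode and UMI bases over quality minimums, and counted unique UMIs per well and gene. Strand is not given in the sources used here. From the bulk counts, 2 genes with 3 text values were left out. CPM were computed over each library's total, with 95% exact Poisson intervals. Ratios of libraries have exact conditional intervals, and a library or group at 0 was set to 3 UMIs. Sorted XEN-like cells, sorted ectoderm-like cells and mESCs (2 libraries each, groups as labelled) were tested with edgeR 4.0.16 (quasi-likelihood F test, TMM, filterByExpr, Benjamini-Hochberg, adjusted p under 0.05) in 1 fit without a replicate block; DESeq2 1.42.0 was an alternative. The SE given with edgeR's log2 fold changes is their absolute size divided by the square root of the F statistic. Onset was the first time point from which on a gene's interval lay above those of both mESC libraries. SCRB-seq wells over 2000 UMIs were thinned to 2000 UMIs, with a 4000 UMI alternative. RPKM of a cell were rescaled so that its sum equalled the median sum over mESC cells, with thresholds of 1 and 5. No doublet caller was run. Shares have exact binomial intervals. The fit was tested on simulated data. Genes named beside the factors were list genes past the test with the largest changes, paralogs with at least 10 UMIs in a library (some are not reported here) and the genes most correlated with each factor in log2(CPM + 1) among those with at least 100 UMIs. The factors and lists were chosen with earlier results of these data known.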

Additional observations from a re-analysis of the deposited data

How the results depend on the processing

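Depth limits most of these values: 1 UMI in a bulk library is less than 1 CPM, and Hnf4a never rested on more than 52 UMIs. Of 198 alternative values of single factors in the tests, 190 kept their direction and side of the threshold and 8, all named above, lost the call; none turned direction. Leaving out 1 library in turn gave 1267 to 1962 genes called between XEN-like cells and mESCs (2042 with all), 296 to 1371 between XEN-like and ectoderm-like cells (1139 with all) and 876 to 1750 between ectoderm-like cells and mESCs (1711 with all). The factors called higher were then 6, 3 to 5 and 3 to 5. The lowest counts came without XEN-like replicate 1 (1267), ectoderm-like replicate 1 (296) and ectoderm-like replicate 2 (876); between XEN-like and ectoderm-like cells it was 667, 478 and 556 without ectoderm-like replicate 2, XEN-like replicate 1 and XEN-like replicate 2, and between ectoderm-like cells and mESCs 1029 without ectoderm-like replicate 1. A lone library was assumed to vary like the other groups. Replicate numbers are shared between groups but no label says that they mark a batch; deviations of same-numbered libraries correlated at 0.333, 0.1 and 0.0203. With the replicate number as a block 2515, 1515 and 2167 genes were called and no factor's call changed. Scaling by library totals put 65.5%, 48.8% and 70.04% of calls higher, against 54.02%, 54.9% and 51.5%, and moved the median of all genes to 0.15, −0.16 and 0.36. Of 126 SCRB-seq shares at other depths 44 moved beyond their interval and of 63 SMART-seq2 shares none did.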

Other observations

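The XEN-like culture also stood apart from the sorted XEN-like cells in some of the 11 visceral endoderm genes, named here after their values were seen. Ttr, which encodes a thyroid hormone carrier, was at 715 CPM in the culture and at 25.9 and 90.2 CPM in sorted replicates 1 and 2. Afp, a fetal serum protein gene, was at 81.4 CPM against 3.05 and 1.82 CPM, the apolipoprotein gene Apoa1 at 89.7 against 1.02 and 0.911 CPM, and the hedgehog ligand gene Ihh at 133 against 14.2 and 10.0 CPM. Other genes of the list did not follow: the retinol carrier gene Rbp4 was at 0.690 CPM against 22.4 and 19.1 CPM, Amn at 0 against 2.54 and 0.911 CPM, and Apoe at 13.8 CPM against 22.8 and 5.47 CPM. Endocytic receptor genes were lower in the culture. Cubn, which is also in the visceral list, was at 9.66 CPM against 235 and 74.7 CPM, and Lrp2 at 0.690 CPM against 95.5 and 38.3 CPM. The adaptor gene Dab2 was at 140 CPM against 1263 and 950 CPM, and Lamb1 at 937 against 1366 and 855 CPM. The culture is 1 library, so no test was possible.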
